A study of Rattus norvegicus with 8 samples.

Results

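The genes described here are 8 transcripts known from reactive astrocytes and the acute-phase response: Lcn2, Serpina3n, Steap4, A2m, S100b, Cd44, Cebpd and Fgf2. They were taken from the array by gene symbol, which gave 32 of its 45220 spots and 8 of its 14871 named genes. The genes were chosen with the difference between hypertensive and control eyes in these samples already known. That difference is therefore given as a description, without a test. The samples were retinal ganglion cells (RGCs), the neurons that send their axons through the optic nerve, purified from rat eyes. The COH group held 4 samples from eyes in which pressure had been kept high (chronic ocular hypertension), a model of glaucoma, and the control group 4 samples from normotensive control eyes. The series' design text describes fellow eyes within 4 pools of animals. A COH and a control sample with the same number in their titles are taken here as 1 such pair. Agilent rat arrays compared every sample with 1 shared reference RNA of the rat, and a level here is a log2 ratio, sample over reference. The labels read here state no strain, age, number of animals in a pool or purification method.

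When the nervous system is injured or inflamed, astrocytes, and in the retina also Muller glia, enlarge and switch on a set of secreted and surface proteins. Several of these belong to the acute-phase response, the programme by which the liver answers inflammation, and are induced through interleukin-6 type cytokines acting on STAT3, through interleukin-1 and tumour necrosis factor acting on NF-kappaB, and through C/EBP transcription factors. Lcn2 and Serpina3n are widely used as markers of this reactive state in rodents. In bulk RNA of purified cells, the number of glial cells left in the preparation and the amount of RNA per glial cell cannot be told apart.

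The start regions of the genes show which of them carry letters that match binding sequences of these factors. RefSeq promoter windows on the GRCr8 build, from 250 bases before to 50 bases after the gene start, were found for 6 of the 8 genes; A2m and Cebpd were not matched. The STAT motif TTCNNNGAA was found on either strand in 3 of the 6 windows (Steap4, Serpina3n and Fgf2) and in 8.87% of all 33469 rat windows. The C/EBP motif TTGCNNAA was found in 2 of the 6 (Lcn2 and Steap4) and in 10.6% of all windows. The looser NF-kappaB motif (GGG, any 5 letters, CC) occurred in 4 of the 6 and in 47.3% of all windows. The 4 windows with a STAT or C/EBP match are shown 5′ to 3′ along the gene's strand, with those matches in capitals, because they set Lcn2 and Steap4 beside Serpina3n and Fgf2, whose differences between the groups were smaller or opposite. The Lcn2 window lies at chr3:36081731-36082030 on the minus strand and the Steap4 window at chr4:27054720-27055019 on the minus strand. The Serpina3n window lies at chr6:129088142-129088441 on the plus strand and the Fgf2 window at chr2:122164204-122164503 on the plus strand. A match of letters is a description and not evidence of binding.
Lcn2: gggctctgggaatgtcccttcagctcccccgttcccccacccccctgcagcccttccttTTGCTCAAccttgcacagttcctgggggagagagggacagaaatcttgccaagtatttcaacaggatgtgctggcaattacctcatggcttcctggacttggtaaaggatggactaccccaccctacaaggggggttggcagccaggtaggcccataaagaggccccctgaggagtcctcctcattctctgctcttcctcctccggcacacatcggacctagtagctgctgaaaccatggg
Steap4: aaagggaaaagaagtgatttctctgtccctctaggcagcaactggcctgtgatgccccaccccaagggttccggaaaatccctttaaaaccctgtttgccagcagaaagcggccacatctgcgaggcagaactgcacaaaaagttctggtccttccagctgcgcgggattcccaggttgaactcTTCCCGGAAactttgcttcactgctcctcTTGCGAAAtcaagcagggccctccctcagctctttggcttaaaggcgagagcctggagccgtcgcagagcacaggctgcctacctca
Serpina3n: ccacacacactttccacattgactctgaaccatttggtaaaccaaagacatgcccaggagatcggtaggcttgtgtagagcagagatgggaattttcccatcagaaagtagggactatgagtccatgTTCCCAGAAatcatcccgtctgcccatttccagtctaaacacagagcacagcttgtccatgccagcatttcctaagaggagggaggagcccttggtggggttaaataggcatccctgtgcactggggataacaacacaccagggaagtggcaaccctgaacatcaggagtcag
Fgf2: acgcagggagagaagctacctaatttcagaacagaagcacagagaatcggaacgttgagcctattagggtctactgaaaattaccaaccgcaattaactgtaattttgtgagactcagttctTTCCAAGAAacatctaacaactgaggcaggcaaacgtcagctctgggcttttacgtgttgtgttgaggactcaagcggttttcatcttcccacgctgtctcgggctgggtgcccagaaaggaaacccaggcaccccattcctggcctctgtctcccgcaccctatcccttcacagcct
The Steap4 window held both motifs, the STAT match TTCCCGGAA starting at position -66 and the C/EBP match TTGCGAAA at position -37 relative to the gene start. The Serpina3n window held the STAT match TTCCCAGAA, the Fgf2 window TTCCAAGAA and the Lcn2 window the C/EBP match TTGCTCAA. No STAT match and no C/EBP match was found in the windows of Cd44 and S100b. The motifs shown in capitals did not overlap each other.

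Between 32101 and 42076 of the 45220 spots carried a value on an array, and 22856 spots had one on all 8 arrays. These gave 18595 items for testing, of which 9792 were named genes. The array of COH replicate 4 stood apart. Its mean correlation with the other arrays across spots with distinct values was 0.68, against 0.77 to 0.84 for the others, and its deviation from the median array differed by 0.95 between blocks of consecutive features. That range was 0.87 on the array of control replicate 3 and 0.21 to 0.64 on the rest. Over all items, limma with the pair as a block called 0 of 18595 at an adjusted p under 0.05 (0.00%), and 880 (4.73%) at an unadjusted p under 0.05 and at least 1.5-fold, made up of 2.57% of all items higher and 2.17% lower in COH. With distinct values only, 358 were higher and 73 lower, and without pair 3 323 were higher and 467 lower. This pair of limits is the one the series' design states and is called the design rule. The limit on p alone also gave 880 items, so the fold limit removed none. A share of 4.73% is near what a p limit of 0.05 gives where nothing differs. None of the 8 genes met either criterion. The median named gene differed by -0.12, -0.003, 0.35 and 0.10 in pairs 1 to 4. Over all spots with a value, the median of pair 3 ran the other way, at -0.06 on the COH array and 0.12 on the control array.

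Relative to the reference RNA, 6 of the 8 genes lay below it on all 4 control arrays and 2, Steap4 and S100b, above it. On the COH arrays 5 lay below it on all 4 arrays and the same 2 above it. Among all named genes, 45.9% lay below and 22.3% above the reference on every control array, and 42.9% and 21.4% did so on every COH array. A ratio to the reference depends on the reference as well as on the cells, the dyes were not swapped, and levels of different probes are not compared.

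**Figure D1:**
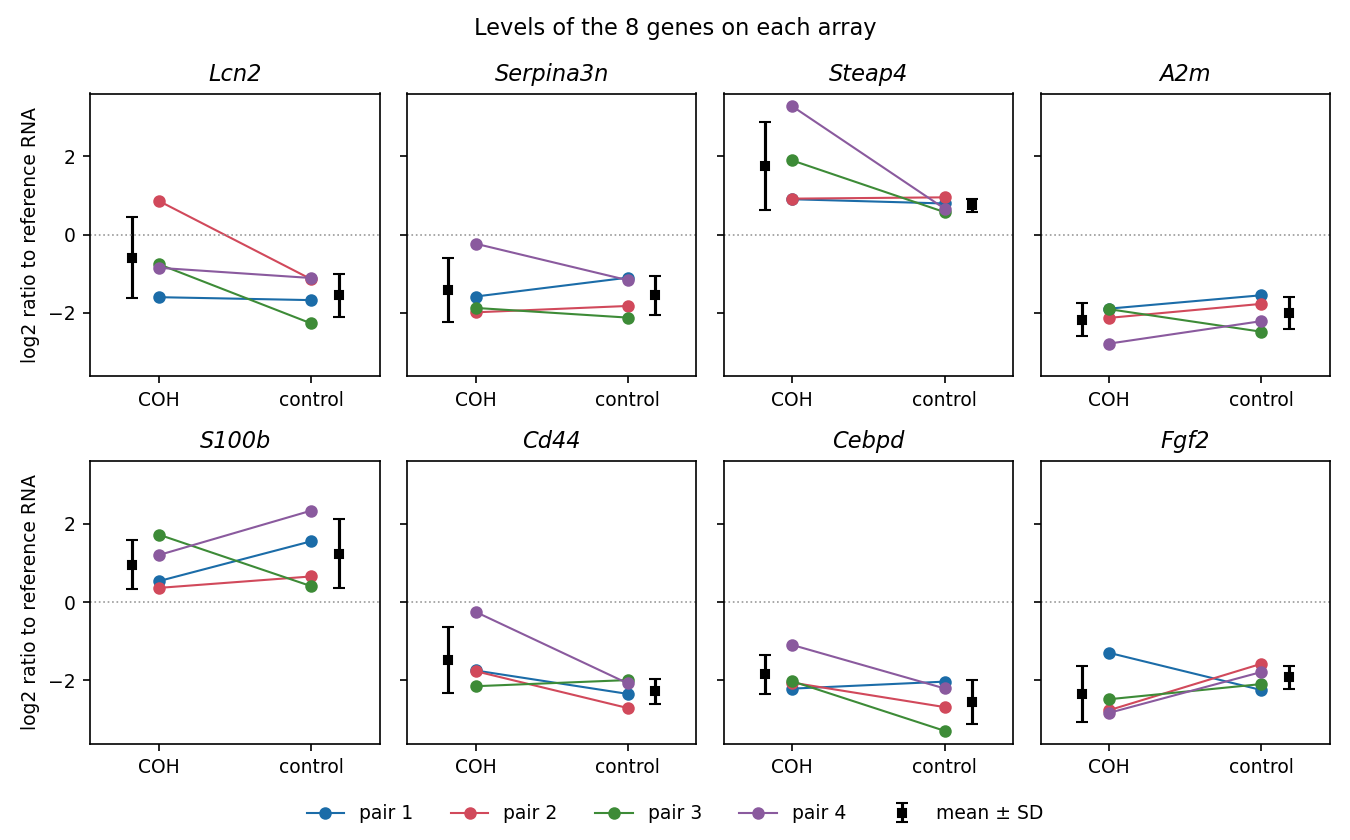
Log2 ratio to the reference RNA of each of the 8 genes on the 4 COH and 4 control arrays. Lines join the samples of a pair, black squares with bars are the group mean ± SD (n = 4 each), and the dotted line marks the reference level. The groups overlap for every gene.

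In COH minus control, 5 of the 8 genes had a difference above 0 and 3 below it, with a median of 0.42 on the log2 scale. Among all 9792 named genes, 5589 were above 0, with a median of 0.08. At least 1.5-fold higher were Steap4, Lcn2, Cd44 and Cebpd, a count of 4 of 8 against 14.7% of all items. At least 1.5-fold lower were 0 of 8 against 11.3% of all items. The COH and control values overlapped for all 8 genes; COH lay wholly above control for 1.58% and wholly below it for 0.946% of all items. Because the genes were chosen on this contrast, nothing is read from these shares.

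Lcn2 encodes lipocalin-2, a secreted protein that binds bacterial siderophores and thereby withholds iron. Its spot had log2 ratios of -1.60, 0.86, -0.76 and -0.85 in COH samples 1 to 4, against -1.67, -1.14, -2.27 and -1.11 in control samples 1 to 4. COH sample 2 alone lay above the reference, while COH sample 1 lay within the control values. The mean was -0.59 ± 1.04 in COH and -1.55 ± 0.55 in control samples (SD, n = 4 each), a difference of 0.96 ± 0.94 (SD of 4 pairs). The pairs differed by 0.07, 1.9995, 1.51 and 0.26, so Lcn2 was the only one of the 8 genes with a positive difference in 4 of 4 pairs, as 8.38% of all items had. None of the 8 was lower in 4 of 4 pairs, as 4.66% of all items were. The highest value, in COH sample 2, was shared exactly by 64 spots of that array, which is read here as a mark of low signal. Without pair 2 the difference was 0.62, and with the position trend of each array removed pair 4 differed by 0.02. The other Lcn2 spot, built on an expressed sequence tag, had a value on 3 arrays only, of -0.63 in COH sample 4 and 1.73 and 2.99 in control samples 2 and 3. It placed the control samples above the COH sample and shares no complete pair, so the Lcn2 difference rests on 1 spot.

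Steap4 encodes a metalloreductase of the cell membrane and endosomes that reduces iron and copper and is induced by inflammatory cytokines. Its complete spot had log2 ratios of 0.90, 0.92, 1.90 and 3.28 in COH samples 1 to 4, against 0.80, 0.95, 0.58 and 0.67 in control samples 1 to 4. The control samples lay close together, and COH samples 3 and 4 lay above all of them while COH samples 1 and 2 did not. The mean was 1.75 ± 1.12 in COH and 0.75 ± 0.16 in control samples (SD, n = 4 each), with a difference of 1.002 ± 1.23 (SD of 4 pairs). In pairs 1 to 4 it was 0.11, -0.03, 1.32 and 2.61. Without pair 4 the difference was 0.47. This spot had a distinct value on all 8 arrays.

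The other 2 Steap4 spots did not repeat the order seen on the complete one. A spot built on an expressed sequence tag differed by 0.91, 1.81 and -1.16 in pairs 1, 2 and 4. A further spot on the RefSeq transcript differed by -0.20 and -1.95 in pairs 1 and 4. In pair 4, where the complete spot was highest in COH, both others were lower in COH. The first of these spots had a value shared by 3 or more spots on 7 of 7 arrays with a value and the other on 5 of 5.

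Cd44 encodes the cell-surface receptor for hyaluronan, a matrix sugar, and is displayed by reactive astrocytes and Muller glia. Its complete spot had log2 ratios of -1.75, -1.76, -2.15 and -0.25 in COH samples 1 to 4, against -2.35, -2.71, -1.99 and -2.08 in control samples 1 to 4. COH was higher in 3 of 4 pairs, and COH sample 3 lay within the control values. The mean was -1.48 ± 0.84 in COH and -2.28 ± 0.32 in control samples (SD, n = 4 each). The difference was 0.80 ± 0.82 (SD of 4 pairs), with 0.60, 0.94, -0.16 and 1.83 in pairs 1 to 4, and 0.46 without pair 4. The other Cd44 spot differed by -1.55 in pair 3 and 0.68 in pair 4, with shared values on all 6 arrays where it was measured. Its direction in pairs 3 and 4 was that of the complete spot, with a larger difference in pair 3 and a smaller one in pair 4.

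Cebpd encodes C/EBP delta, a transcription factor that is itself induced early in the acute-phase response. Its log2 ratios were -2.21, -2.06, -2.02 and -1.10 in COH samples 1 to 4, against -2.03, -2.68, -3.29 and -2.21 in control samples 1 to 4. COH samples 1, 2 and 3 lay close together and COH sample 4 stood above them. The mean was -1.85 ± 0.51 in COH and -2.55 ± 0.56 in control samples (SD, n = 4 each), a difference of 0.71 ± 0.65 (SD of 4 pairs). The pairs differed by -0.18, 0.62, 1.27 and 1.11. Cebpd rested on 1 spot with a distinct value on all 8 arrays. Without any 1 pair the difference stayed between 0.52 and 1.0003, and with the position trend removed it was 0.90 and positive in 4 of 4 pairs.

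Serpina3n encodes a secreted serine protease inhibitor. Its log2 ratios were -1.58, -1.99, -1.87 and -0.23 in COH samples 1 to 4, against -1.10, -1.82, -2.12 and -1.16 in control samples 1 to 4. Apart from COH sample 4 the COH values lay within the control range. The mean was -1.42 ± 0.81 in COH and -1.55 ± 0.50 in control samples (SD, n = 4 each). The difference of 0.13 ± 0.61 (SD of 4 pairs) was made up of -0.48, -0.16, 0.25 and 0.93, and it was 0.34 without pair 1, 0.23 without pair 2 and -0.13 without pair 4. A2m encodes alpha-2-macroglobulin, a plasma protease trap and in the rat a major acute-phase protein. Its log2 ratios were -1.89, -2.13, -1.90 and -2.79 in COH samples 1 to 4, against -1.55, -1.77, -2.48 and -2.21 in control samples 1 to 4. Both secreted inhibitors thus lay below the reference on all 8 arrays with mixed directions between pairs. For A2m the difference was -0.17 ± 0.51 (SD of 4 pairs), lower in 3 of 4 pairs. It was -0.42 without pair 3, -0.04 without pair 4, and 0.01 with the position trend removed. Rat Serpina3n and A2m belong to families of closely related genes, and cross-hybridisation between relatives was not tested.

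**Figure D2:**
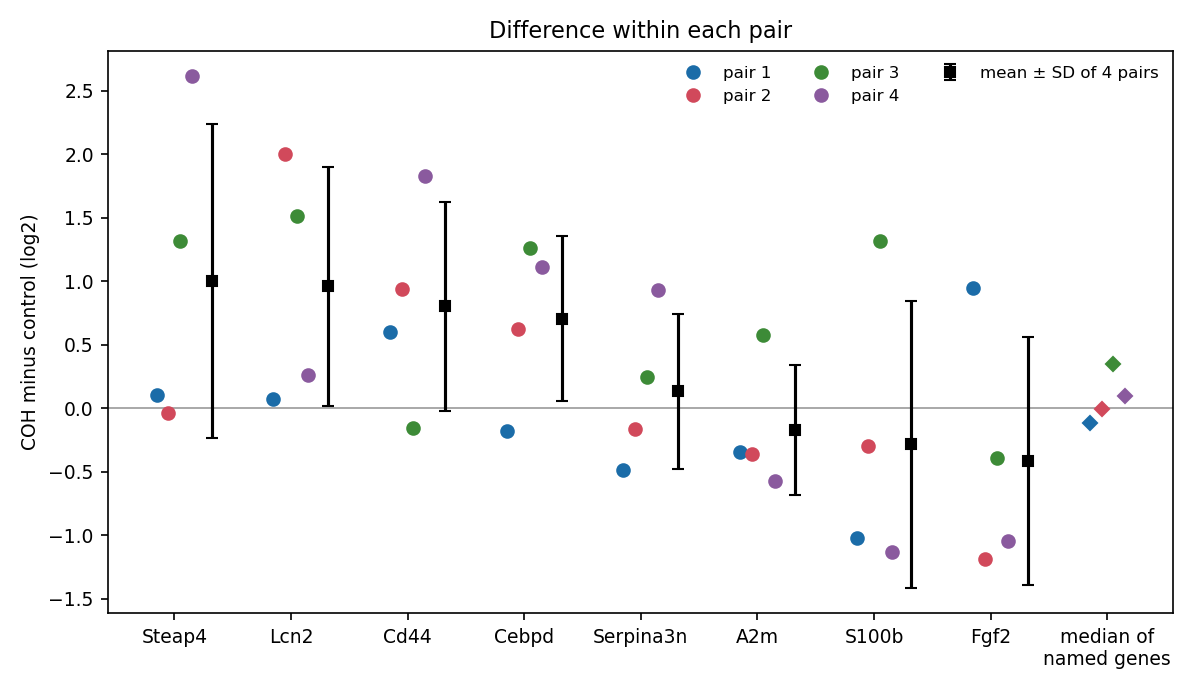
COH minus control on the log2 scale within each of the 4 pairs (circles) for the 8 genes, with the mean ± SD of the pairs (black squares); diamonds give the median of all 9792 named genes in each pair. Steap4, Cd44 and Serpina3n have their highest value in pair 4, and Lcn2 in pair 2.

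S100b encodes a small calcium-binding protein abundant in astrocytes, and Fgf2 a growth factor made by Muller glia and photoreceptors under stress. The array carried 11 spots for each. For S100b 2 spots had a value on every array, and their mean log2 ratio was 0.54, 0.36, 1.73 and 1.20 in COH samples 1 to 4, against 1.56, 0.66, 0.41 and 2.34 in control samples 1 to 4. The groups overlapped widely, and pair 3 ran opposite to the others. The mean was 0.96 ± 0.63 in COH and 1.24 ± 0.88 in control samples (SD, n = 4 each), a difference of -0.28 ± 1.13 (SD of 4 pairs). The difference was -0.04 without pair 1, -0.81 without pair 3 and 0.002 without pair 4. On 7 of 8 arrays both spots had values shared with other spots.

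For Fgf2, 5 of the 11 spots were complete, and their mean log2 ratio was -1.30, -2.76, -2.48 and -2.83 in COH samples 1 to 4, against -2.25, -1.58, -2.09 and -1.79 in control samples 1 to 4. COH sample 1 was the highest of all 8 and the other COH samples were below every control sample. The mean was -2.34 ± 0.71 in COH and -1.93 ± 0.30 in control samples (SD, n = 4 each), a difference of -0.42 ± 0.98 (SD of 4 pairs). It was 0.95, -1.19, -0.39 and -1.04 in pairs 1 to 4, and -0.87 without pair 1, -0.16 without pair 2 and -0.21 without pair 4. The 5 spots of this 1 transcript gave mean differences from -0.97 to 0.01, 4 of them below 0.

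The repeated spots give the spread of readings of 1 gene on 1 array. The 5 complete Fgf2 spots had an SD of 0.61, 0.89, 0.94 and 0.70 on COH arrays 1 to 4, against 0.48, 0.72, 0.77 and 0.69 on control arrays 1 to 4. These SDs include any lasting offset between the spots, which cancels within a pair. Of the 11 Fgf2 spots, 7 to 11 had a value on an array, and nearly all of those values were shared with other spots: 7 of 7, 9 of 10, 10 of 10 and 8 of 11 on the COH arrays, against 6 of 7, 9 of 10, 9 of 9 and 11 of 11 on the control arrays. Of the 11 S100b spots, 4 to 9 had a value on an array. Counting every spot with at least 1 complete pair, 7 of 11 Fgf2 spots had a mean difference below 0 and 4 above it, and 6 of 8 S100b spots were below and 2 above.

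**Figure D3:**
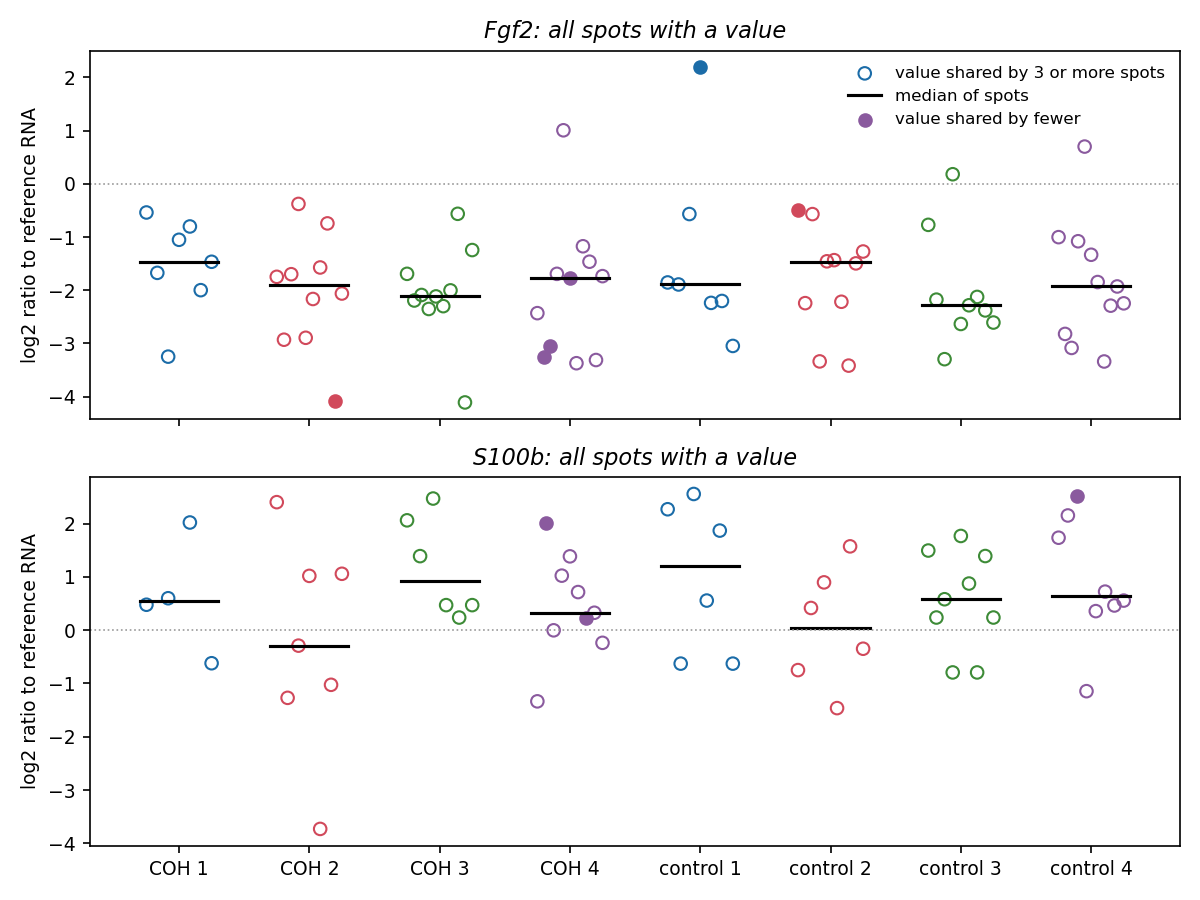
Log2 ratio to the reference RNA of every Fgf2 and S100b spot with a value on each of the 4 COH and 4 control arrays, coloured by pair. Open circles are values that 3 or more spots of the array shared exactly, filled circles are distinct values and bars are medians. Spots of 1 gene spread over several log2 units on the same array.

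Several of the genes reached an extreme on the array of COH replicate 4. Serpina3n, Steap4, Cd44 and Cebpd had their highest value of all 8 arrays there, and A2m and Fgf2 their lowest. With the position trend removed these 4 genes stayed highest, at 0.30 for Serpina3n, 3.28 for Steap4, -0.35 for Cd44 and -0.51 for Cebpd. A2m and Fgf2 were then no longer lowest on that array. Without pair 4 the median difference over the 8 genes was 0.23. Whether the state of this array or of this pool of cells sets these values was not tested.

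Other genes of the same response were taken from lists drawn up from general knowledge, but with earlier results of these data known. The counts and p-values of all lists here and below are therefore descriptions. Of all items, 2.57% met the design rule as higher and 2.17% as lower. Of 12 measured pan-reactive astrocyte genes, 0 met the design rule as higher and 1 as lower, and the median difference was 0.09. The 1 was Socs3, an inhibitor of STAT3 signalling, at 0.97 ± 1.37 in COH and 2.56 ± 0.70 in control samples (SD, n = 4 each), a difference of -1.59 (limma, unadjusted p = 0.0194, adjusted p = 0.915). Socs3 was higher in COH in pair 1 (0.22) and lower in the other pairs (-2.76, -1.78 and -2.05), with shared values on 3 arrays. Aspg and Il6st, the shared receptor chain of interleukin-6 type cytokines, differed by 0.47 and 0.50, and the sphingosine phosphate receptor S1pr3 by -0.90. Gfap, the intermediate filament of astrocytes, differed by 0.15 and Vim, vimentin, by -0.52.

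Of all items, 2.57% met the rule as higher, and 8.38% were higher in 4 of 4 pairs. Among 10 measured genes of astrocytes stimulated by inflammation, 2 met the rule as higher and 0 as lower (median difference 0.28). These were the complement components C4a (1.07; limma, unadjusted p = 0.0194, adjusted p = 0.915) and C3 (0.91; unadjusted p = 0.033, adjusted p = 0.915), both higher in 4 of 4 pairs. The C4a values were shared with other spots on all 8 arrays, and those of C3 on none. Fkbp5, a co-chaperone of steroid receptors, was the 1 gene of that list with a difference below 0, of -0.13. Among 9 genes of astrocytes after ischaemia, 1 met the rule, as lower, with a median difference of 0.03. It was Sphk1, which makes sphingosine phosphate, at -1.39 ± 1.17 in COH and 0.23 ± 0.43 in control samples (SD, n = 4 each), a difference of -1.62 (limma, unadjusted p = 0.00656, adjusted p = 0.915), with values shared with other spots on all 8 arrays. Tgm1, a transglutaminase, differed by 0.79 in the same list, Slc10a6 by 0.58 and S100a10 by -1.18. S100a10 was higher in 2 of 4 pairs and differed by -4.73 in pair 4.

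Of all items, 2.57% met the rule as higher and 2.17% as lower. The plasma proteins of the acute phase were measured for 16 genes, and 0 met the rule in either direction (median difference -0.08). Of them Tf, transferrin, differed by 0.52, the lipopolysaccharide-binding protein Lbp by 0.46, the protease inhibitor Serpina1 by -0.57 and Saa4, a serum amyloid A protein, by -0.61. The cytokines that induce the response and their receptors gave 0 of 8 by the rule, with a median of 0.11. Here Il6, interleukin-6, differed by 0.34 and its receptor Il6r by -0.89, the tumour necrosis factor receptor Tnfrsf1a by 0.70, Cntf, ciliary neurotrophic factor, by 0.51 and the interleukin-1 antagonist Il1rn by -0.34. Among 13 transcription factors and regulators 1 met the rule, as lower, and it was the same Socs3 already counted among the pan-reactive genes (median 0.05). Stat3 itself differed by 0.11, Cebpb by 0.19, Fos by 0.57, Cebpg by 0.40 and Socs1, a further inhibitor of cytokine signalling, by -0.48.

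The partners of the 8 proteins were measured for 11 genes, of which 0 met the rule (median 0.11), as 4.73% of all items did. Slc22a17, a receptor for lipocalin-2, was at -0.32 ± 0.72 in COH and 0.13 ± 0.18 in control samples (SD, n = 4 each). It was lower in 4 of 4 pairs, as 4.66% of all items were, by 0.46 on average. Its differences in pairs 1 to 4 were -0.04, -0.14, -0.34 and -1.31. Lrp1, the receptor that clears alpha-2-macroglobulin complexes, differed by 0.82, and Ager, a receptor for S100b, by 0.66. Has1, a hyaluronan synthase, differed by 0.56. The receptors for Fgf2 differed by 0.21 (Fgfr1) and 0.39 (Fgfr2), and the granule protease Gzmb by -0.42.

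**Figure D4:**
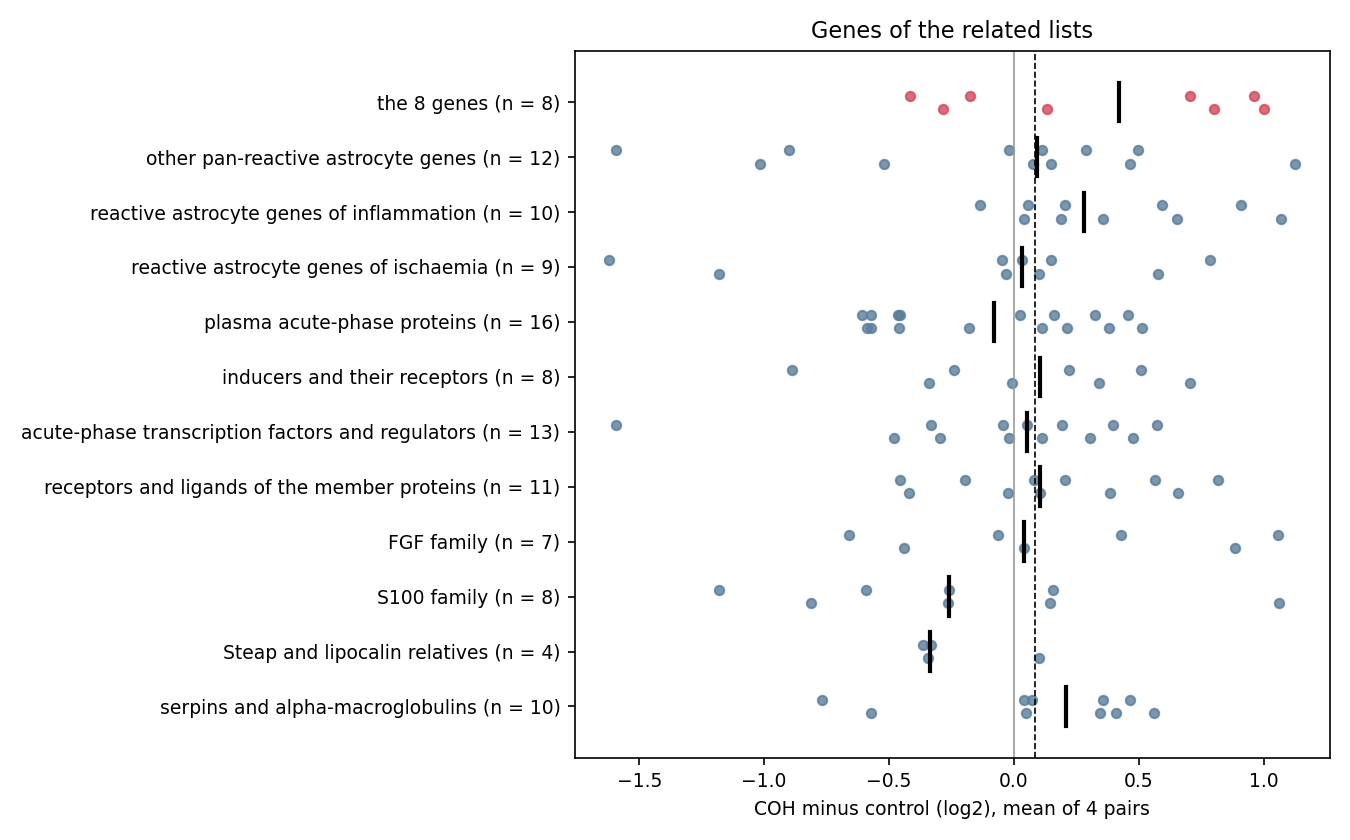
COH minus control on the log2 scale, mean of 4 pairs, for the 8 genes (red) and the measured genes of each related list (blue). Thick bars are list medians, the grey line is 0 and the dashed line is the median of all named genes, 0.08.

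Markers of the cells that could supply these transcripts were set beside them. Of 10 astrocyte markers 7 were measured, and their summed level, the sum of the ratios to the reference on a linear scale, was 5.17 to 6.75 on the COH arrays and 6.17 to 9.97 on the control arrays. Of these 7, 2 met the design rule, both as lower, as 2.17% of all items did. They were the glutamate transporter Slc1a2 (-1.24), with shared values on 7 arrays, and the folate enzyme Aldh1l1 (-0.92), with none. Each had a limma adjusted p of 0.915. The water channel Aqp4 was at 0.45 ± 0.92 in COH and 1.03 ± 0.20 in control samples (SD, n = 4 each). It differed by -0.09, -0.03, -0.01 and -2.16 in pairs 1 to 4, so its mean of -0.57 rested on pair 4. The Aqp4 values were shared on all 8 arrays. Aldoc had the highest difference of the list, 0.25. Of 11 Muller glia markers 8 were measured, with a summed level of 5.88 to 7.70 in COH and 5.42 to 7.10 in control samples. Glutamine synthetase, Glul, had the highest difference of that list, 0.83, Vim the lowest, and Rlbp1 had no spot with a value on all arrays. Of 13 microglia and macrophage markers 10 were measured, with a summed level of 11.2 to 22.6 in COH and 20.5 to 22.2 in control samples. In that list C1qc differed by 0.83, Aif1 by 0.39, Cd68 by -0.59 and the chemokine receptor Cx3cr1, which met the design rule as lower, by -2.05 (limma, adjusted p = 0.915), and Itgam had no complete spot. Of 13 RGC markers 11 were measured, with a summed level of 14.0 to 22.8 in COH and 12.2 to 24.4 in control samples. For 3 of the 11 the log2 ratio was above 0 in each control sample, against 22.3% of all named genes. For 5 of the 11 it was above 0 in each COH sample, against 21.4% of all named genes. It was below 0 in each control sample for 1 of the 11 (45.9% of all named genes). In each COH sample it was below 0 for 2 of the 11 (42.9%). Tubb3 differed by 0.83, with 3.04 in pair 2 and 2 of 4 pairs higher. Thy1, the defining surface marker, met the design rule as lower (-1.28, limma adjusted p = 0.915). Of 12 photoreceptor markers 6 were measured, all 6 with a difference above 0, as were 5589 of all 9792 named genes. Their median difference was 0.25, from 0.04 for Pde6b to 1.27 for Gngt1, and 0 met the design rule. Gngt1 differed by 5.17 in pair 4, was higher in 2 of 4 pairs and had shared values on 7 arrays. The summed level of the photoreceptor markers was 17.97 to 33.6 in COH and 12.1 to 44.8 in control samples. Of 8 endothelial and pericyte markers 3 were measured, with a summed level of 3.96 to 11.8 in COH and 4.89 to 9.21 in control samples, from -0.43 for Cdh5 to 0.83 for Pdgfrb, and Pecam1 had no complete spot. A summed level adds ratios of unlike probes, so the genes with the highest ratios weigh most in it. Arr3, for example, was at a log2 ratio of 4.74 on control array 1. The summed levels are therefore no measure of the amount of a cell type. A ratio to a reference has no zero, and the part of other cells in the 8 differences was not tested.

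For each of the 8 genes, the genes whose log2 ratios ran most alike over the 8 arrays were found by Pearson correlation among the 9792 named genes. The arrays are paired and share their reference RNA, so these are descriptions. Closest to Lcn2 were Sfpq (r = 0.97), a nuclear RNA-binding protein, and Ppp1r11 (r = 0.96). Steap4 ran with Dpm1 (0.97) and Cyp11b1 (0.97), Cd44 with Olr1481 (0.97) and Sirt3 (0.96), and Cebpd with Alg10 (0.99) and Ppwd1 (0.99). Serpina3n ran with Gnpnat1 (0.98) and Nrdc (0.97). A2m ran with Junb, an AP-1 transcription factor (0.99), and the ribosomal protein gene Rpl4 (0.98). S100b ran with Dram2 (0.95) and Arpp19 (0.93), and Fgf2 with Ldb2 (0.96) and Zdhhc19 (0.94). None of these 16 nearest genes was another of the 8. Only 2 of the 9792 named genes were taken for each, so this says little about how the 8 ran together. Between the 8 genes, r ran from -0.79 (A2m and Cd44) to 0.79 (Steap4 and Cd44). With 8 arrays and so many genes, high correlations can also arise by chance. Steap4, Cd44, Cebpd and Serpina3n were all highest on the array of COH replicate 4, and how far their r rests on it was not tested. Among the nearest genes, values were shared on 7 arrays for Cyp11b1, 6 for Ldb2, 4 for Ppp1r11 and 3 for Zdhhc19.

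**Figure D5:**
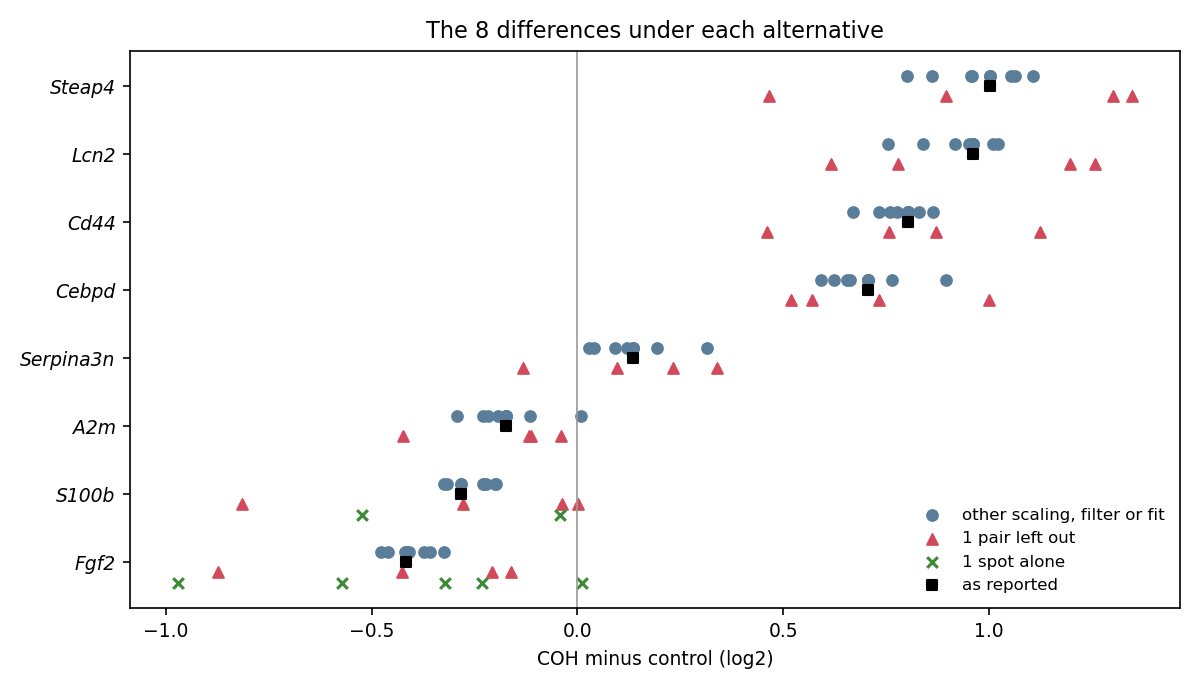
COH minus control on the log2 scale for each of the 8 genes as reported (black) and under the other scalings, filters and fits (blue), with 1 pair left out (red) and for 1 spot alone (green, Fgf2 and S100b). Steap4, Lcn2, Cd44 and Cebpd stay above 0 in every alternative plotted, while Serpina3n, A2m, S100b and Fgf2 each cross 0 once.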

How the data were processed

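RGC RNA was labelled with Cy5 and reference RNA with Cy3 on every array, per the labels' protocols. The authors deposited 1 log2 ratio (sample over reference) for each spot that met Agilent's quality criteria, after Lowess normalization, per the series' design text. No software is named in the labels read here. The log2 scale was read from the values and the direction from the dyes. Arrays give no depth, so precision rests on the 4 pairs.

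Gene symbols came from the probe annotation table (25353 spots with 1 symbol, 48 with several, 19819 with none); 25306 were updated by gene identifier. Only spots measured on each of the 8 arrays entered the fit, averaged per symbol. Values held identically by 3 or more spots of 1 array are called shared and were read as low signals. The test across all items was limma 3.58.1 (R 4.3.3) with lmFit and eBayes, two-sided, Benjamini-Hochberg adjusted, with pool number as a replicate block. It was run on data simulated with independent normal noise, without pool effects, an outlying array, position trends or shared values. That run cannot show how the test behaves where these are present. Fellow eyes of the same animals are paired, per the series' design text. That the same number marks the same pool is read from the sample titles, which do not state it. Deviations of same-numbered arrays correlated at 0.02 to 0.09, and those of differently numbered arrays at -0.19 to 0.09. These values do not set the same-numbered arrays apart.

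The p-values measure the spread between pools. The 8 genes, the lists and the rules were chosen with earlier results of these data known. Genes named from each related list were the 2 per direction with the smallest unadjusted p, plus a few with a known role that were chosen after their values were seen (Gfap, Vim, Il6, Stat3, Cebpb, Ager, Fgfr1 and Fgfr2). Likeness was the highest Pearson correlation over the 8 arrays. Alternatives covered scaling, position trend, block, array weights, missing and shared values, the prior, single spots and each pair left out. Promoter windows are from RefSeq, GRCr8.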

Additional observations from a re-analysis of the deposited data

Results flagged for a closer look

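Samples far from the other 3 of their group were looked for in 52 groups of 4, the levels of the 8 genes and the list medians, and 2 were found, where chance marks about 1 in 20. Both lay on the array of COH replicate 4. Cebpd was at -1.10 (log2 ratio) there, against -2.21 to -2.02 on the other COH arrays. The median of the 4 measured Steap and lipocalin relatives was 0.80 there, against 0.33 to 0.41 on the other COH arrays.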

How the results depend on the processing

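The number of arrays and the share of low signals limit these values. No alternative gave an item past the adjusted threshold (0 of 18595 as reported). The count meeting the design rule was 880, 697 with no replicate block (unpaired), and 431 with distinct values only, where 8278 items were tested; with 1 pair left out it ran from 679 to 1079. The split, 477 higher and 403 lower in COH, was 358 and 73 with distinct values, 560 and 330 with arrays centred on their medians, and 323 and 467 without pair 3. With arrays centred on the median of the tested items it was 444 and 458. Where spots with at least 3 complete pairs entered, 1190 of 23339 items met the rule, 544 higher and 646 lower. With and without the replicate block 0 items passed the adjusted threshold, so there was no such call that could depend on the pairing. With distinct values the inducers and receptors had a median of 0.70 over 3 genes, against 0.11 over 8. The pan-reactive list had medians of -0.10 to 0.12 with 1 pair left out, the lowest without pair 3. The median over the 8 genes ran from 0.23 to 0.61 where all 8 entered, and was 0.75 with distinct values, which left 4 of them. With arrays centred on the tested items' median, chosen after seeing the data, it was 0.38. Sign turned for Serpina3n without pair 4 (-0.13), A2m with the position trend removed (0.01), S100b without pair 4 (0.002) and Fgf2 by 1 spot alone (0.01); the causes were not tested. Of the list medians, those of the inflammation genes and of the serpins and alpha-macroglobulins kept their sign in every alternative run, and the other list medians did not.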

Other observations

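Relatives of the 8 genes were taken from lists drawn up from general knowledge, but with earlier results of these data known. Their counts are descriptions. Of all items, 4.73% met the design rule. Of the fibroblast growth factor family, 7 of 20 listed genes had a spot with a value on all arrays, and 0 met the design rule (median difference 0.04). Fgf9 was at 0.64 ± 0.56 in COH and -0.42 ± 0.78 in control samples (SD, n = 4 each), a difference of 1.06 with shared values on 6 arrays, Fgf21 differed by 0.89, Fgf11 by -0.66 and Fgf7 by -0.44. Of 8 measured S100 genes 1 met the rule. It was S100a13, which takes part in the release of fibroblast growth factor 1, at -1.63 ± 0.64 in COH and -2.69 ± 0.27 in control samples (SD, n = 4 each), higher in 4 of 4 pairs by 1.06 (limma, unadjusted p = 0.0232, adjusted p = 0.915). Of all items, 8.38% were higher in 4 of 4 pairs, and the S100a13 values were shared on 3 arrays. S100a1 differed by 0.16, and the inflammatory S100a8 and the annexin partner S100a10 by -0.81 and -1.18. S100a8 and S100a10 were each higher in 2 of 4 pairs and differed by -3.06 and -4.73 in pair 4. The median difference of the S100 list was -0.26, and 0.11 without pair 4.

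Of 4 measured Steap and lipocalin relatives, 3 had a difference below 0 (median -0.34). Steap2, a metalloreductase related to Steap4, was lower in 4 of 4 pairs by 0.37 on average, as 4.66% of all items were lower in 4 of 4. Its pair 3 differed by -0.01 only, and its values were shared on 6 arrays. Ptgds, a lipocalin that makes prostaglandin D2, differed by -0.33 and the retinol carrier Rbp4 by 0.10. Of 10 measured serpins and alpha-macroglobulins 8 had a difference above 0 (median 0.21) and 0 met the rule. Among all 9792 named genes, 5589 had a difference above 0. Pzp and Mug1, both alpha-macroglobulins, differed by 0.56 and -0.77, Serpina5 by 0.47 and Serpina1 by -0.57. The genes closest to Serpina3n, Serpina3c and Serpina3m, had spots but none with a value on all 8 arrays.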
